A study of Rattus with 8 samples.

Results

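RNA-seq profiles of rat neural stem cells cultured with piezoelectric nanostickers were compared with those of untreated cells after 5 days. The comparison used 4 of the 8 libraries of the series, 2 nanosticker libraries against 2 control libraries, and the rule that chose them used the group labels only. All 18374 genes of the deposited count table were considered and 14336 passed the filter on low counts. The series also holds 2 libraries of cells cultured with a piezoelectric material and 2 libraries of cells given ultrasound, both at 5 days, and these entered the comparison through the shared estimate of the spread and as groups against which the nanosticker group was tested directly. A piezoelectric material develops electric charge when it is mechanically deformed, and the title of the series concerns nanostickers that are activated by ultrasound. Several points are not stated in the labels: whether the nanosticker cultures received ultrasound, how the nanosticker differs from the material of the piezoelectric group, which strain or age of rat gave the cells, and whether the samples of a group were separate cultures. The p-values below therefore rest on the variation among these samples alone, and that variation may be technical.

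Neural stem cells divide and give rise to neurons, astrocytes and oligodendrocytes. In rodents the progeny of forebrain stem cells include neuroblasts that carry Dlx transcription factors, synthesise GABA and migrate to the olfactory bulb, while the oligodendrocyte branch passes from Olig1- and Olig2-positive precursors through a premyelinating stage to cells that make myelin. Astrocytes clear glutamate and potassium from the space around neurons and are joined by connexin channels, and after injury they turn on a set of reactive genes. The control cultures already held transcripts of all these branches at day 5, and in such bulk libraries fewer cells of a type and less RNA per cell cannot be told apart.

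The 8 libraries held 15239133 to 15628667 counts each, and between 16497 and 16613 genes had a count above 0. The 2 control libraries lay further apart than the pairs of the other groups: the median size of the log2 difference between replicates was 0.146 for control against 0.0815 to 0.0922 for the other 3 groups. Longer transcripts had lower ratios between the first and the second control library (Spearman's rho across 13090 genes, which are not independent, = -0.475), whereas the nanosticker minus control change had a rho with length of -0.0178. Gene levels are CPM, the count as a share of the library, scaled with TMM factors, and changes are log2 fold changes ± standard error from edgeR's quasi-likelihood test with Benjamini-Hochberg adjustment over the 14336 genes, with a gene called at an adjusted p below 0.05. A gene whose deposited count was not a whole number is taken below to share reads with another gene. The quantifier was not given, so this is an inference, and the value of such a gene is uncertain.

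Between nanosticker and control, 5378 genes were called, which is 37.5% of those tested; 2837 (19.8%) were higher and 2541 (17.7%) were lower with nanostickers. Most of these changes were small. The median size of a called log2 fold change was 0.51, 4163 of the called genes (77.4%) differed by less than 2-fold, 651 rose by at least 2-fold and 564 fell by at least 2-fold. Without the TMM factors, on library size alone, 2277 genes were higher and 3221 lower, so the split between the directions depends on the scaling, which moved the median over all genes from 0.0064 to -0.056 on the log2 scale. Of the called genes, 502 shared reads with other genes. These shares, 19.8% higher and 17.7% lower, are the background for every gene list below. The lists were chosen with earlier results of these data known, so a gap from the background describes a list and is no test of it.

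**Figure D1:**
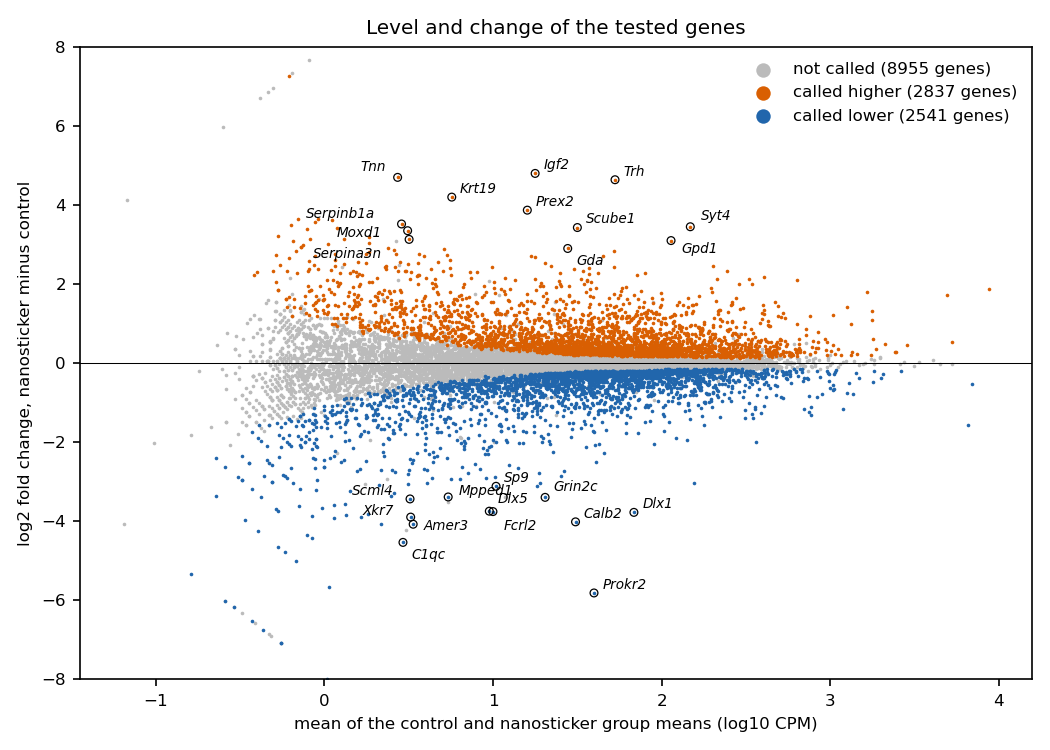
Each point is a tested gene, placed by the mean of its control and nanosticker levels (log10 CPM, 2 libraries a group) and its log2 fold change, nanosticker minus control; orange and blue mark the 2837 genes called higher and the 2541 called lower, and genes with no count in either group are not drawn. The 24 circled genes are the 12 largest increases and the 12 largest decreases among genes with at least 5 CPM in a group, whole counts and groups that do not overlap, from 4.80 for Igf2 to -5.82 for Prokr2.

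The largest changes are given for called genes with a symbol, a mean of at least 5 CPM in either group, whole counts in all 8 libraries and no overlap between the 2 control and the 2 nanosticker libraries. The 12 largest increases of this kind included several secreted proteins. Igf2, insulin-like growth factor 2 (gene ID 24483, Rnor 6.0 chromosome 1, 215828102 to 215839081, plus strand), was at 1.36 and 1.09 CPM in the 2 control libraries and 33.6 and 34.9 CPM in the 2 nanosticker libraries, a log2 fold change of 4.80 ± 0.21 (edgeR adjusted p = 2.91e-09). Trh, the precursor of thyrotropin-releasing hormone (gene ID 25569, Rnor 6.0 chromosome 4, 124110716 to 124113242, minus strand), went from 4.39 and 3.73 CPM to 102 and 102 CPM (4.64 ± 0.15, adjusted p = 3.38e-09). For both genes the 2 nanosticker libraries lay close together and far above both control libraries. Syt4, a synaptotagmin of secretory vesicles, rose from 26.8 and 22.8 to 279.7 and 262 CPM, and Gpd1, the cytosolic glycerol-3-phosphate dehydrogenase, from 24.5 and 22.9 to 201 and 206 CPM. Tnn, a tenascin of the extracellular matrix, was barely detected in control at 0.129 and 0.258 CPM and reached 5.56 and 4.92 CPM, and the intermediate filament gene Krt19 rose from 0.581 and 0.579 to 11.5 and 10.1 CPM. The other 6 were Prex2, a Rac exchange factor, at 3.87 ± 0.18, the protease inhibitors Serpinb1a at 3.52 ± 0.33 and Serpina3n at 3.13 ± 0.42, Scube1 at 3.43 ± 0.13, Moxd1 at 3.35 ± 0.29 and guanine deaminase Gda at 2.90 ± 0.23. Adjusted p-values of the 12 were between 4.98e-11 and 0.000104.

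The 12 largest decreases included several genes of the forebrain GABA lineage. Prokr2, the prokineticin receptor that in mouse is needed for neuroblasts to enter the olfactory bulb (gene ID 192649, Rnor 6.0 chromosome 3, 125006180 to 125021020, minus strand), was at 76.6 and 79.5 CPM in control and 1.19 and 1.55 CPM with nanostickers (-5.82 ± 0.13, edgeR adjusted p = 3.86e-11). Calb2, the calcium-binding protein calretinin of interneurons, was at 58.2 and 58 CPM and 3.31 and 3.84 CPM (-4.02 ± 0.097), and Grin2c, an NMDA receptor subunit, at 36 and 38.4 CPM and 2.71 and 4.32 CPM (-3.40 ± 0.18). In each case both nanosticker libraries lay far below both control libraries. The homeobox genes Dlx1 and Dlx5 and the zinc finger factor Sp9 also stood among the 12 and are described with their list. The remaining 6 were C1qc, a chain of complement C1q, at -4.54 ± 0.33, Amer3 at -4.08 ± 0.32, Xkr7 at -3.90 ± 0.34, the Fc receptor-like gene Fcrl2 at -3.76 ± 0.2, Scml4 at -3.44 ± 0.27 and Mpped1 at -3.39 ± 0.23. Adjusted p-values of the 12 were between 3.86e-11 and 1.34e-06.

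**Figure D2:**
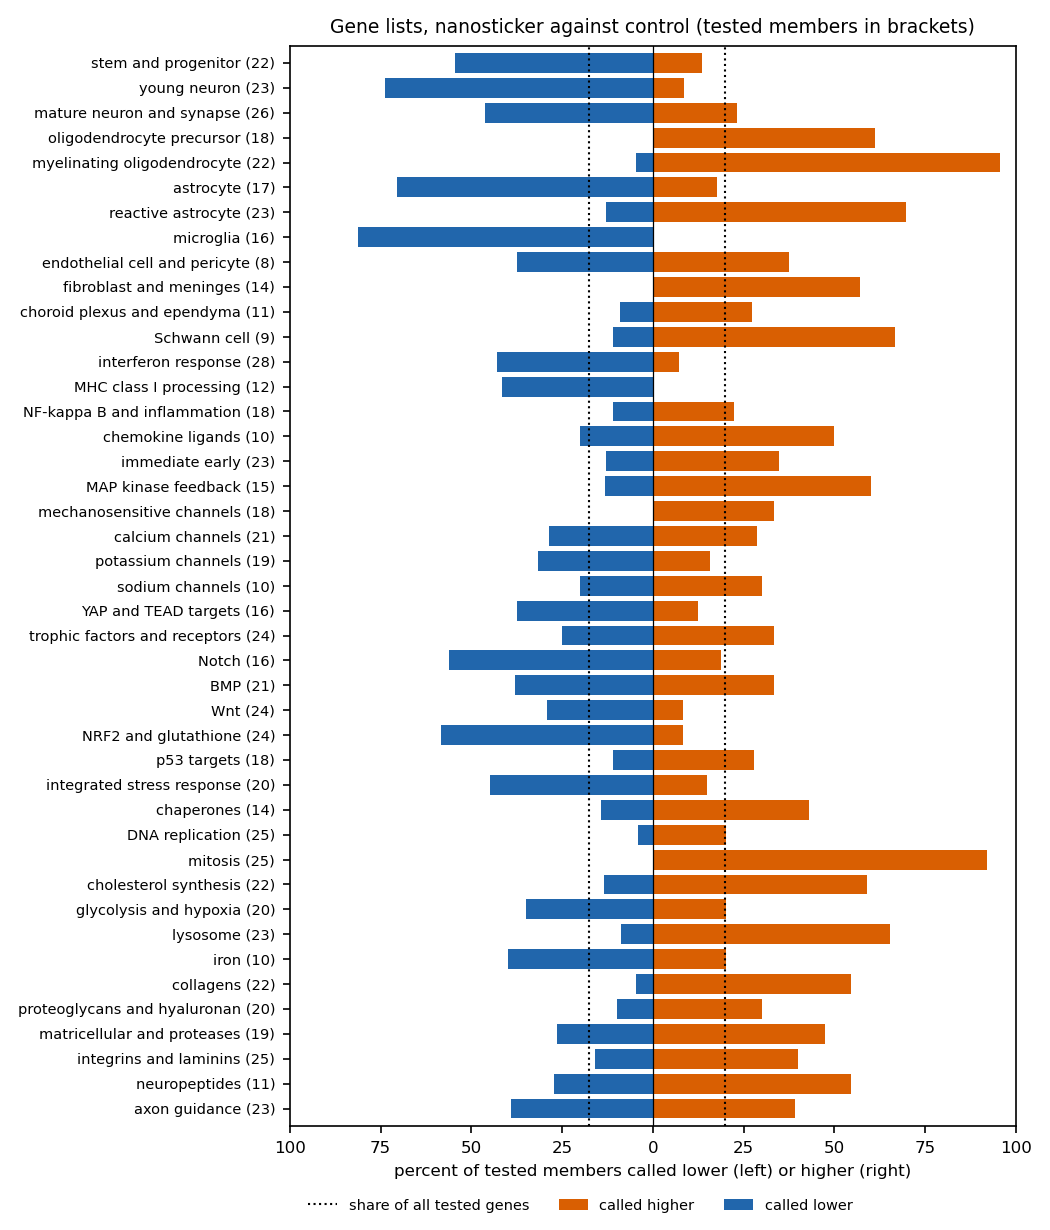
Bars give, for each of the 43 gene lists, the percent of tested members called lower (left, blue) or higher (right, orange) with nanostickers, with the number tested in brackets; dotted lines mark the shares of all tested genes, 17.7% and 19.8%. Myelinating oligodendrocyte and mitosis genes reach furthest to the right and microglia, young neuron and astrocyte genes furthest to the left.

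Genes of the oligodendrocyte lineage rose with nanostickers, in part of the precursor list and more widely on the list of the myelinating stage. Of 18 tested genes on the precursor list, 11 were higher and 0 lower, with a median log2 fold change of 0.48. The 7 not called were Pdgfra, Gpr17, Sox8, Sox6, Neu4, Vcan and Tnr. Of 22 myelin-stage genes, 21 were higher and 1 lower, with a median of 1.23, against a median over all tested genes of 0.0064. Sox10, the transcription factor that drives myelin gene expression (gene ID 29361, Rnor 6.0 chromosome 7, 120393238 to 120403523, minus strand), was at 116 and 114 CPM in control and 458 and 459.8 CPM with nanostickers, a 3.98-fold rise (1.99 ± 0.056, edgeR adjusted p = 9.11e-11). The 2 nanosticker values lay close together, far above both control values. The homeobox factor Nkx2-2 went from 75.6 and 77.3 to 154 and 167 CPM and the zinc finger factor Zfp488 from 15 and 13.5 to 36.1 and 31.2 CPM. Olig2 and Olig1, which specify the lineage, moved less: Olig2 was at 405 and 410.2 CPM in control and 502 and 508 CPM with nanostickers (0.31 ± 0.055, adjusted p = 0.00065), and Olig1 changed by 0.36 ± 0.064. Of the genes of committed and premyelinating cells, Bcas1 went from 878 and 883 to 1768 and 1759.7 CPM (1.0 ± 0.052). Enpp6, whose reads are partly shared, changed by 1.78 ± 0.079. The precursor surface genes did not move alike. Cspg4, the NG2 proteoglycan, rose by 1.04 ± 0.12, whereas Pdgfra, the receptor for platelet-derived growth factor, was not called at 422 and 484 CPM and 467 and 464 CPM (0.038 ± 0.063, adjusted p = 0.677) and shares reads. Gpr17, of the stage between precursor and premyelinating cell, was not called either at 264 and 422 CPM in control and 474 and 409 CPM with nanostickers, where the groups overlapped. It was called higher without control replicate 2 only (adjusted p = 5.93e-05, the lowest of 18 alternatives, up to 0.631), and Pdgfra likewise (adjusted p = 0.02, the lowest of 17, up to 0.882).

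The structural genes of myelin rose in both nanosticker libraries. Mbp, myelin basic protein, was at 3747 and 3724 CPM in control and 13674 and 13683 CPM with nanostickers, a 3.66-fold rise (1.87 ± 0.051, edgeR adjusted p = 9.11e-11). Per transcript length, in the length-corrected TPM values the authors deposited, its level was 3200.4 and 3417 in control and 11646 and 11667 with nanostickers. Cnp, an enzyme of uncompacted myelin, was at 757 and 774 TPM in control and 1808 and 1861 TPM with nanostickers, and Mag, the adhesion protein of the inner myelin surface, at 148 and 173 TPM and 645 and 670.4 TPM. By CPM, Mag (gene ID 29409, Rnor 6.0 chromosome 1, 89345325 to 89360905, plus strand) rose from 230.0 and 251 to 1009 and 1044 (2.10 ± 0.059). Myrf, the factor that switches on the myelin programme, went from 221 and 258 to 695 and 712 CPM (1.55 ± 0.07). The largest rise on the list was that of Opalin, a late oligodendrocyte membrane protein, from 4.71 and 4.25 to 29.3 and 29.3 CPM (2.70 ± 0.13), followed by the protease Adamts4, from 60.3 and 63.6 to 334 and 347 CPM (2.46 ± 0.068). Mog, a protein of the outer myelin surface that appears late, rose less, from 21.5 and 17.5 to 31.7 and 31.3 CPM (0.69 ± 0.098). The enzymes of galactolipid synthesis rose as well, with Ugt8 at 1.27 ± 0.051, Gal3st1 at 1.15 ± 0.071 and Fa2h at 0.84 ± 0.072. Mal, a proteolipid of myelin rafts, was the 1 member called lower, at 27.5 and 26.9 CPM in control and 21.2 and 21.3 CPM with nanostickers (-0.36 ± 0.093, adjusted p = 0.00895). That call was lost under DESeq2 and without either nanosticker library, and its adjusted p ranged from 0.00328 to 0.0559 over 18 alternatives.

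Most myelin genes were also higher with nanostickers than in either other treated group. Against the piezoelectric group, where 36.4% of all tested genes were called (18.9% higher and 17.4% lower), 21 of the 22 myelin genes were higher and 1 lower. Against the ultrasound group, where 34.4% were called (17.6% higher and 16.9% lower), 17 were higher and 1 lower, with a median of 1.15. Mbp was at 5141 and 5246 CPM with ultrasound and differed from nanostickers by 1.40 (adjusted p = 1.36e-09). Among the members that did not pass the test between nanosticker and ultrasound were Mog, Hapln2 and Ermn, with differences of 0.15, 0.23 and -0.12. Sox10 was at 82.5 and 75.9 CPM and Myrf at 208 and 196 CPM with ultrasound, below every control value, and nanosticker exceeded ultrasound by 2.53 and 1.80. Ultrasound against control, a comparison that shares the control libraries, called 7.19% of all tested genes (4.03% higher and 3.16% lower), and there 16 of the 22 myelin genes were higher and 1 lower, with a median of 0.47. Without ultrasound replicate 1 or 2, 10 or 9 of them were higher, and the lower count was between 0 and 3 over the alternatives.

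**Figure D3:**
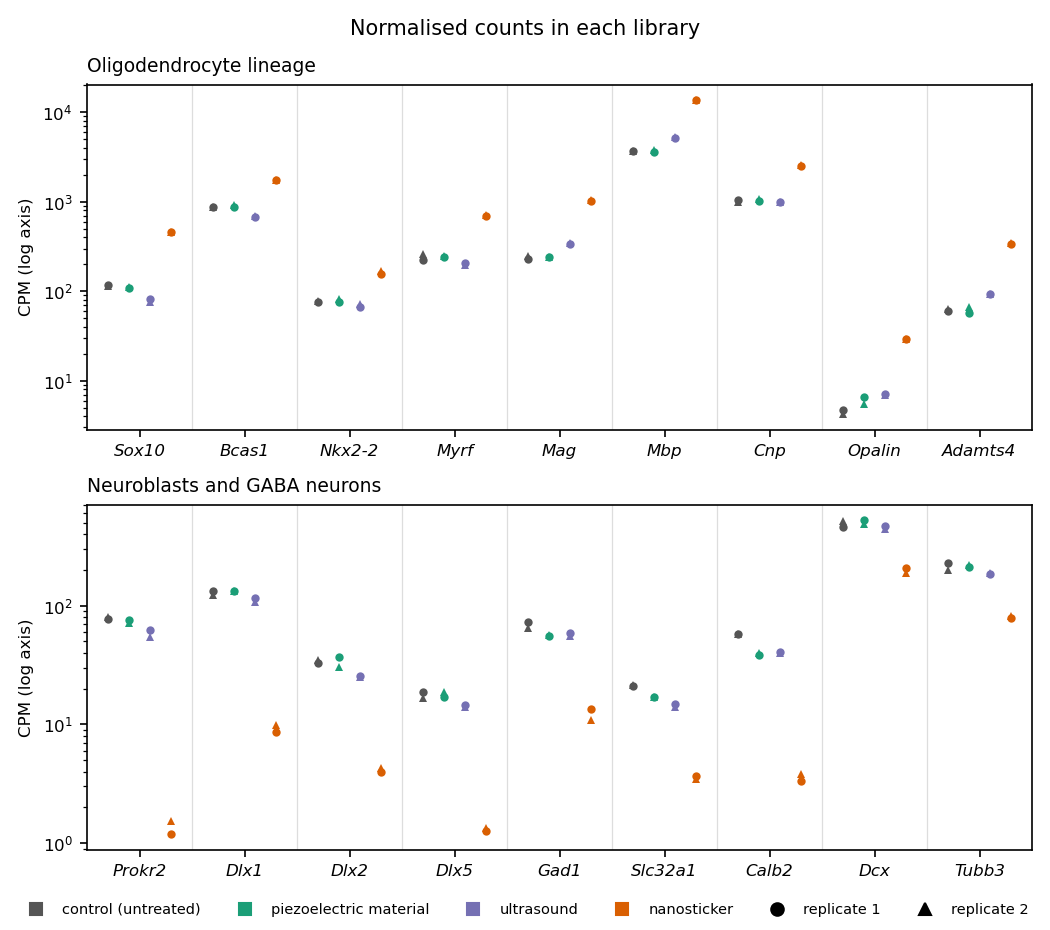
Normalised counts (CPM, log axis) of oligodendrocyte genes (upper panel) and of neuroblast and GABA neuron genes (lower panel) in each of the 8 libraries; colours mark the 4 groups and symbols the 2 replicates. The nanosticker libraries sit above all others for the 9 oligodendrocyte genes drawn, and below all others for the 9 neuronal genes drawn, with Prokr2 at 1.19 and 1.55 CPM.

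Young neuron genes fell as a group. Of 23 tested, 2 were higher and 17 lower, with a median log2 fold change of -1.11. Dlx1, a homeobox factor of GABA interneurons (gene ID 296500, Rnor 6.0 chromosome 3, 58164931 to 58169521, plus strand), was at 133 and 122 CPM in control and 8.67 and 9.91 CPM with nanostickers, a 13.7-fold fall (-3.78 ± 0.087, edgeR adjusted p = 3.86e-11). Dlx2 went from 33.1 and 35 to 3.97 and 4.32 CPM (-3.04 ± 0.12) and Dlx5 from 18.7 and 16.6 to 1.26 and 1.35 CPM (-3.75 ± 0.16). The nanosticker values of the 3 genes were far under the lowest control value. Sp8 and Sp9, zinc finger factors of the same neuroblasts, fell by 2.89 and 3.12 on the log2 scale. The enzymes that make GABA followed, with Gad1 from 73.3 and 65.2 to 13.5 and 10.9 CPM (-2.50 ± 0.1) and Gad2 from 15.6 and 17.9 to 4.43 and 3.98 CPM (-1.99 ± 0.14). Slc32a1, which loads GABA into vesicles, fell from 21 and 21.5 to 3.71 and 3.44 CPM (-2.57 ± 0.12). Genes shared by most newborn neurons fell less far. Dcx, the microtubule protein doublecortin, was at 459 and 518 CPM and 207 and 189.5 CPM (-1.30 ± 0.071), Tubb3, neuronal beta-tubulin, at 229 and 199 CPM and 78 and 81.7 CPM (-1.42 ± 0.07), and Sox4 at 266 and 271 CPM and 158 and 169 CPM (-0.72 ± 0.055).

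Not every neuronal gene fell. Elavl3, an RNA-binding protein of neurons, rose from 55.8 and 62.6 to 98.2 and 97 CPM (0.72 ± 0.073, edgeR adjusted p = 5.52e-06), and the growth cone protein gene Gap43 from 86.4 and 85.6 to 116 and 131 CPM (0.52 ± 0.066). Of 26 genes of mature neurons and synapses, 6 were higher and 12 lower (median -0.29). Of the neurofilament genes, Nefl and Nefm rose and Nefh was not called. Nefl was low, at 1.81 and 1.61 CPM in control and 8.14 and 5.87 CPM with nanostickers (2.03 ± 0.26), and Nefm changed by 1.51 ± 0.24. Syt1, the calcium sensor of synaptic vesicles, rose by 0.80 ± 0.079. The postsynaptic scaffold Shank1 fell from 41.6 and 50.1 to 13.8 and 11.1 CPM (-1.88 ± 0.11), and the NMDA receptor subunits Grin1 and Grin2b fell by 1.08 and 1.59. Map2, a microtubule protein of dendrites, was at 772 and 805 CPM and 618 and 589.9 CPM (-0.38 ± 0.054). Rbfox3, the NeuN gene, was low throughout at 6.13 and 6.25 CPM in control and 3.31 and 4.65 CPM with nanostickers (-0.64 ± 0.21, adjusted p = 0.0287). Its call was lost under DESeq2, with only the 2 groups compared and without nanosticker replicate 1, and its adjusted p ranged from 0.0163 to 0.241 over 18 alternatives. Neurod1, of the glutamate lineage, had 5 and 2 counts in control and 0 in both nanosticker libraries and was not tested.

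The fall of young neuron genes was also seen in the direct tests. Against the piezoelectric group 2 of 23 were higher and 18 lower, and against ultrasound 3 were higher and 17 lower. Dlx1 was at 131 and 132 CPM with the piezoelectric material and 115 and 106 CPM with ultrasound, both near the control level, and nanosticker minus ultrasound was -3.57 (edgeR adjusted p = 6.28e-11).

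Genes of resting astrocytes fell more often than they rose, and genes of reactive astrocytes rose more often than they fell. Of 17 tested astrocyte genes, 3 were higher and 12 lower (median -0.64). Gja1, which encodes the gap junction protein connexin 43 (gene ID 24392, Rnor 6.0 chromosome 20, 37876650 to 37889097, plus strand), was at 587 and 579.9 CPM in control and 145 and 146 CPM with nanostickers (-2.0 ± 0.052, edgeR adjusted p = 6.55e-11). Aqp4, the water channel of astrocyte endfeet, went from 1656 and 1642 to 759 and 706 CPM (-1.17 ± 0.055). Acsbg1, a fatty acid activating enzyme, changed by -1.17 ± 0.051, Ndrg2 by -1.11 ± 0.052 and the bicarbonate transporter Slc4a4 by -1.07 ± 0.059. Both nanosticker libraries were below both control libraries for all 5. In the other direction, Glul, which turns glutamate into glutamine, rose from 856 and 897 to 1211 and 1208 CPM (0.46 ± 0.054), and the potassium channel gene Kcnj10 rose by 0.83 ± 0.13. Both of these genes are also expressed by oligodendrocytes. Itih3 rose by 1.16 ± 0.11. The glutamate transporter gene Slc1a2 was low and not called, at 14.7 and 25.4 CPM in control and 24.6 and 19.4 CPM with nanostickers, with overlapping groups. It was called higher without control replicate 2 only (adjusted p = 0.00236, the lowest of 18 alternatives, up to 0.936).

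Of 23 tested genes of reactive astrocytes, 16 were higher and 3 lower (median 0.73). Hspb1, a small heat shock protein, rose from 139 and 129.6 to 404 and 438 CPM (1.65 ± 0.063, edgeR adjusted p = 1.23e-09). Cp, the copper-binding ferroxidase ceruloplasmin, rose from 212 and 212 to 600.2 and 569.6 CPM (1.46 ± 0.057), Lcn2, the secreted lipocalin, from 9.49 and 6.83 to 30.8 and 32.4 CPM (1.95 ± 0.16), and the hyaluronan receptor Cd44 from 159.8 and 150.5 to 252 and 265 CPM (0.73 ± 0.076). Gfap, the intermediate filament gene that most often marks reactivity, went against the list. It was at 1567 and 1473 CPM in control, 2603 and 2408 CPM with the piezoelectric material, 2585 and 2309 CPM with ultrasound and 1056 and 1094 CPM with nanostickers, so the nanosticker libraries were the lowest of the 8. The nanosticker minus control change was -0.50 ± 0.066 and the nanosticker minus ultrasound difference -1.19 (adjusted p = 3.22e-08). S1pr3, a sphingosine phosphate receptor, also fell (-0.61 ± 0.056), and Serping1, the complement C1 inhibitor, rose (1.09 ± 0.086).

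The reactive list did not set nanostickers apart from ultrasound in 1 direction. Against ultrasound 5 of 23 members were higher and 7 lower, where 17.6% and 16.9% of all tested genes were. Lcn2 was at 34.6 and 32.3 CPM with ultrasound, and nanosticker minus ultrasound was -0.081 ± 0.14. Ultrasound against control had 16 of these 23 genes higher and 0 lower. Against the piezoelectric group 16 were higher and 3 lower. Serpina3n, at 0.769 and 0.829 CPM with the piezoelectric material and 1.8 and 0.511 CPM with ultrasound, was higher with nanostickers than in both.

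**Figure D4:**
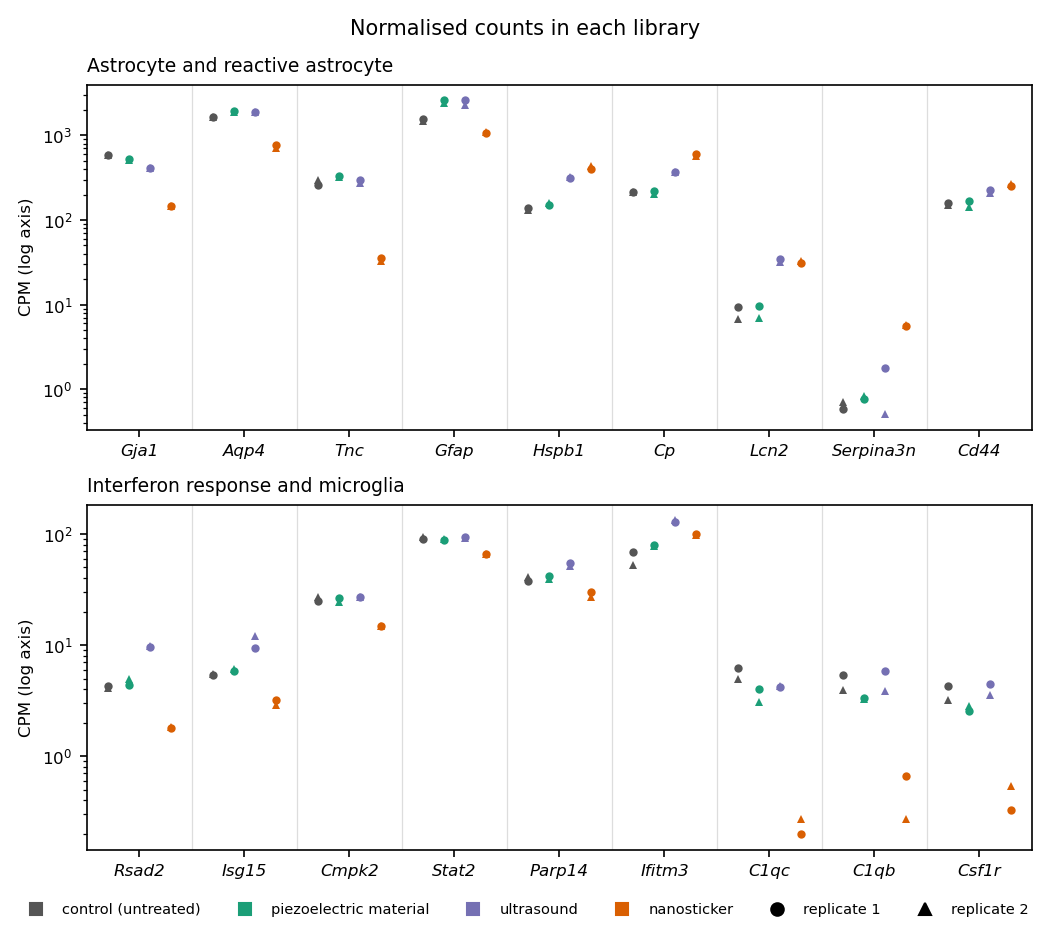
Normalised counts (CPM, log axis) of astrocyte and reactive astrocyte genes (upper panel) and of interferon response and microglia genes (lower panel) in each of the 8 libraries; colours mark the 4 groups and symbols the 2 replicates. Gfap and Rsad2 are lower in the nanosticker libraries than in the other 6, while Hspb1 and Lcn2 are high with both ultrasound and nanostickers.

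Genes of stem cells and radial glia fell more often than they rose. Of 22 tested, 3 were higher and 12 lower (median -0.43), and without control replicate 2 there were 6 higher. Tnc, the tenascin of the stem cell niche, was at 260.0 and 295 CPM in control and 35.3 and 32.6 CPM with nanostickers, an 8.16-fold fall (-3.03 ± 0.079, edgeR adjusted p = 6.55e-11), the largest on the list. Slc1a3, the glutamate transporter of radial glia and astrocytes, went from 1049 and 1081 to 607 and 578 CPM (-0.85 ± 0.054), and Egfr, the receptor for epidermal growth factor, from 80.2 and 88.5 to 48.1 and 43.4 CPM (-0.88 ± 0.078). Ednrb, an endothelin receptor, fell from 1566 and 1592 to 933 and 939.5 CPM. Fabp7, Pax6, Lhx2, Sox9 and Sox1 fell by 0.84, 1.06, 0.62, 0.52 and 1.09 on the log2 scale, and Hes1, a repressor that Notch signalling induces, by 0.69. Sox2, the stem cell factor, moved the other way, from 279 and 283 to 379.6 and 418 CPM (0.51 ± 0.057, adjusted p = 1.37e-05), as did Hopx (1.06 ± 0.13). Nes, the intermediate filament nestin, was not called, at 313 and 395 CPM in control and 315 and 309 CPM with nanostickers (-0.18 ± 0.095, adjusted p = 0.17, range over 18 alternatives 8.61e-06 to 0.972). The 2 control values of Nes lay further apart than the nanosticker pair, and Nes was called lower without control replicate 1 or with the length trend removed.

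In the Notch pathway, in which ligands on one cell hold its neighbours in the progenitor state, 3 of 16 genes were higher and 9 lower. Among ligands, Dll1 went from 50.9 and 49.8 to 28.9 and 29.3 CPM (-0.79 ± 0.07, edgeR adjusted p = 1.64e-06), Dll3 changed by -0.70 ± 0.07 and Dner by -0.83 ± 0.067. Dll4 had 11 and 7 counts in control and 0 in both nanosticker libraries, which is at least 5.79-fold lower when 3 counts over the group are taken as the floor. The ligand gene Jag2 was called higher (0.44), and Jag1 was not called. Of the receptors Notch2 fell (-0.57 ± 0.076), and Notch1, from the stem cell list, was not called. Among effectors Hey2 fell (-0.70 ± 0.089), while the DNA-binding partner Rbpj rose (0.29 ± 0.055). Nrarp was also called higher (0.37), and its call and that of Jag2 were lost under DESeq2. The count of higher members was 1 under DESeq2 and without either nanosticker library.

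Mitosis genes rose by small and similar amounts. Of 25 mitosis genes, 23 were higher and 0 lower, with a median log2 fold change of 0.50; 5 of the 25 share reads. Aurkb, the kinase of the chromosomal passenger complex, was at 54.4 and 50.9 CPM in control and 95 and 94.7 CPM with nanostickers (0.85 ± 0.067, edgeR adjusted p = 5.29e-07), the largest rise of the list. Top2a, the topoisomerase of dividing cells, went from 91.7 and 92.8 to 141 and 131 CPM (0.56 ± 0.059), Cdk1, the kinase that starts mitosis, from 33.7 and 32.5 to 47.3 and 48.1 CPM (0.53 ± 0.072) and Prc1 from 58.5 and 54.9 to 86.8 and 82.3 CPM (0.58 ± 0.069). The groups did not overlap for these 4. Mki67, the Ki-67 antigen, was at 97.3 and 123 CPM and 162 and 141 CPM (0.46 ± 0.11, adjusted p = 0.0116) and shares reads. Its call was lost with only the 2 groups compared and without nanosticker replicate 1, with adjusted p from 3.21e-06 to 0.0708 over 17 alternatives. DNA replication genes moved less: 5 of 25 were higher and 1 lower, shares close to or below the background, and 3 were higher without nanosticker replicate 2. Rrm2, a ribonucleotide reductase subunit, rose from 81.2 and 79.5 to 109.7 and 111 CPM (0.46 ± 0.057), the helicase subunit gene Mcm4 by 0.28 ± 0.065 and Uhrf1, which helps to copy DNA methylation, by 0.42 ± 0.098, the last of these a call lost without nanosticker replicate 2 (adjusted p = 0.0503, the highest of 18 alternatives, from 0.00179). Mcm2, Mcm3, Mcm5 and Mcm6, of the same helicase, were not called, and Mcm7 was the member called lower, a call lost under DESeq2 and without either nanosticker library. Mitosis genes were also higher against the piezoelectric group (21 of 25) and against ultrasound (16 of 25), with none lower in either.

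Markers of other cell types were present at low levels and did not move together. The 16 microglia genes summed to 37.9 to 46.6 CPM in the control libraries and 7.41 to 7.62 CPM in the nanosticker libraries, and 13 of 16 were called lower and 0 higher; with a stricter filter on low counts the members left to test gave 7 lower. C1qb, a chain of complement C1q, was at 5.42 and 3.93 CPM in control and 0.662 and 0.27 CPM with nanostickers (-3.30 ± 0.37, edgeR adjusted p = 1.68e-05), and Csf1r, the receptor microglia need to survive, at 4.33 and 3.22 CPM and 0.331 and 0.539 CPM (-3.09 ± 0.33). C1qa, a further C1q chain, changed by -4.08 ± 0.41. Cx3cr1, the fractalkine receptor, had 6 and 10 counts in control and 0 in both nanosticker libraries, at least 5.15-fold lower with 3 counts over the group as the floor. Ptprc had 19 and 22 counts in control and 0 and 1 with nanostickers, 39.6-fold lower with a 95% counting interval of 6.72 to 1600, which covers counting error only. Trem2, P2ry12 and Tmem119 were not called, and the latter pair was at 0.839 and 0.773 CPM and 0.839 and 0.708 CPM in control and 0.728 and 1.01 CPM and 0.927 and 1.55 CPM with nanostickers. The part of microglial transcripts in the immune results below was not tested.

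Fibroblast and meninges genes summed to 489.7 to 571.6 CPM in control and 909 to 935 CPM with nanostickers, with 8 of 14 called higher and 0 lower (1 lower on library size alone or with the length trend removed). Besides Igf2, the secreted glycoprotein Thbs2 went from 10.8 and 13.1 to 78.2 and 76.9 CPM (2.70 ± 0.094) and the collagen Col3a1 from 25.2 and 25.9 to 95 and 99.5 CPM (1.93 ± 0.096), and the small proteoglycan Lum rose from 0.516 and 0.579 to 4.37 and 4.05 CPM, while Postn, Foxc1 and Dcn were not called. The same sum was 718.3 to 734.7 CPM with the piezoelectric material and 741.5 to 761 CPM with ultrasound, so it was above control in all treated groups. In the direct tests the list was split, with 5 higher and 3 lower against the piezoelectric group and 4 higher and 2 lower against ultrasound. Endothelial and pericyte genes summed to 415.1 to 428.1 CPM in control and 306.4 to 317.6 CPM with nanostickers. Of these Cldn5 and Rgs5 were at 0 in the control and nanosticker libraries, and of 8 tested 3 were higher and 3 lower, with Kdr at 1.89 ± 0.27, Pdgfrb at -0.90 ± 0.067, Notch3 at -0.86 ± 0.096 and the smooth muscle gene Tagln at -0.33 ± 0.064. Choroid plexus and ependyma genes summed to 197.2 to 207.3 CPM in control, where Kl was at 0, and 230.1 to 232.2 CPM with nanostickers. Of 11 choroid plexus and ependyma genes, 3 were higher, with Sostdc1 from 1.74 and 1.35 to 9.86 and 9.17 CPM, the water channel gene Aqp1 from 0.581 and 0.773 to 4.04 and 5.19 CPM and Enpp2, which oligodendrocytes also express, from 106 and 104 to 145 and 146 CPM, and 1 was lower, the cilia factor Foxj1 (-0.59 ± 0.072). Schwann cell markers summed to 373.5 to 386.5 CPM in control and 366.3 to 376.3 CPM with nanostickers. Of 9 tested 6 were higher and 1 lower: Erbb3, a neuregulin receptor that oligodendrocytes also express, rose from 10.9 and 12.7 to 59.8 and 65.6 CPM (2.41 ± 0.11), Scn7a from 79 and 84 to 118 and 123 CPM, and Pmp22 fell (-0.98 ± 0.059). The part of these cell types in the myelin and matrix results was not tested.

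Interferon response genes, which cells switch on against viruses and after other inflammatory signals, fell more often than they rose. Of 28 tested, 2 were higher and 12 lower (median -0.27). Rsad2, the antiviral enzyme viperin, was at 4.26 and 4.12 CPM in control and 1.79 and 1.82 CPM with nanostickers (-1.21 ± 0.19, edgeR adjusted p = 0.00025), Cmpk2 at 24.9 and 26.9 CPM and 14.9 and 14.9 CPM (-0.80 ± 0.09) and the signal transducer Stat2 at 89.6 and 93 CPM and 66.3 and 65.7 CPM (-0.47 ± 0.059). Isg15, a ubiquitin-like protein, fell from 5.42 and 5.47 to 3.24 and 2.9 CPM (-0.82 ± 0.18), and Mx2, which shares reads, changed by -0.40 ± 0.058. Ifitm3 and Ifi44 rose, by 0.71 ± 0.1 and 0.48 ± 0.11, and the count of higher members was 4 when genes with shared reads were left out. The difference was widest against ultrasound, where 23 of 28 were lower with nanostickers and 0 higher (median -0.87): Rsad2 was at 9.69 and 9.9 CPM with ultrasound (nanosticker minus ultrasound -2.44, adjusted p = 3.44e-07). Ultrasound against control had 17 of the 28 higher and 0 lower, with 11 higher under DESeq2 or without ultrasound replicate 1 and 8 without ultrasound replicate 2. Against the piezoelectric group 12 were lower and 3 higher.

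In the machinery that prepares peptides for MHC class I, 5 of 12 genes were lower and 0 higher, and 3 were lower without nanosticker replicate 2 or without genes that share reads, and 1 was higher without control replicate 1 or with the length trend removed. B2m, the MHC class I light chain, went from 745 and 679.8 to 578 and 562 CPM (-0.32 ± 0.058, edgeR adjusted p = 0.000727), and the immunoproteasome subunit Psmb10 fell by 0.68 on the log2 scale. The peptide pump gene Tap1 fell (-0.38 ± 0.093), a call lost without nanosticker replicate 2 (adjusted p = 0.0811, the highest of 18 alternatives, from 0.00209), and Psmb8, which shares reads, changed by -0.76 ± 0.15. Of 18 NF-kappa B and inflammation genes, 4 were higher and 2 lower, close to the background. Bcl3, of the I kappa B family, rose from 10.1 and 11 to 28.3 and 29.3 CPM (1.44 ± 0.097) and the cytokine gene Lif by 1.17 ± 0.18 and the adhesion molecule gene Icam1 by 0.61 ± 0.1. Il33 fell (-0.47 ± 0.11), as did Vcam1, an adhesion molecule that shares reads (-1.29 ± 0.057), and 1 was lower without genes that share reads. The NF-kappa B subunit gene Rela was not called, at 82.6 and 75.1 CPM in control and 83 and 87.8 CPM with nanostickers (0.11 ± 0.071).

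Of 10 tested chemokine ligands, 5 were higher and 2 lower. Cxcl14 rose from 95.1 and 79.3 to 208 and 229 CPM (1.32 ± 0.08, edgeR adjusted p = 8.06e-08), Cxcl12, the ligand that guides migrating progenitors, from 23.4 and 24.3 to 52.8 and 51.2 CPM (1.12 ± 0.074), and Ccl2, which attracts monocytes, from 3.42 and 3.28 to 10.6 and 10.4 CPM (1.64 ± 0.16). Ccl7 rose from 0.71 and 0.193 to 3.18 and 3.24 CPM. Cxcl16 fell from 14.8 and 11.3 to 8.6 and 8.36 CPM (-0.62 ± 0.14). Ccl3 had 5 counts in each control library and 0 with nanostickers, at least 3.22-fold lower with the same floor of 3 counts over the group; a stricter filter leaves it untested and gives 1 lower. Cxcl10, an interferon target, was at 2.58 and 2.51 CPM in control, 2.65 and 2.29 CPM with nanostickers and 7.64 and 7.73 CPM with ultrasound.

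Immediate early genes, transcribed soon after a cell is stimulated, changed in both directions. Of 23 tested, 8 were higher and 3 lower. Fos was at 45.1 and 44.5 CPM in control, 82 and 81.6 CPM with ultrasound and 106 and 107 CPM with nanostickers (1.25 ± 0.065 against control, edgeR adjusted p = 1.23e-08), and the nanosticker libraries exceeded ultrasound (0.38, adjusted p = 0.000459). Junb, a partner of Fos, rose from 25 and 26.4 to 59.7 and 65.2 CPM (1.28 ± 0.082) and Egr1 from 21.2 and 18.8 to 33 and 29.5 CPM (0.64 ± 0.093). Btg2, which restrains division in neural precursors, fell from 73.3 and 70.3 to 31.3 and 33.2 CPM (-1.15 ± 0.069). Arc and Nr4a1, which neuronal activity also induces, were not called: Arc was at 6.39 and 7.21 CPM in control and 6.35 and 7.96 CPM with nanostickers, and Nr4a1 at 22.1 and 21.4 CPM and 20.6 and 20.9 CPM. Bdnf, the activity-dependent neurotrophin, was at the edge of detection, at 0.775 and 0.193 CPM in control and 0.397 and 1.01 CPM with nanostickers (adjusted p = 0.567).

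Of 15 feedback genes of the MAP kinase pathway, 9 were higher and 2 lower, and 5 were higher under DESeq2 or with only the 2 groups compared. Spred3 rose from 31 and 32.7 to 72.2 and 73.4 CPM (1.19 ± 0.07), Phlda1 by 0.85 ± 0.068 and Ccnd1, cyclin D1, by 0.74 ± 0.06, whereas the phosphatase gene Dusp4 fell from 5.23 and 7.53 to 1.99 and 2.36 CPM (-1.55 ± 0.23) and the transcription factor gene Etv1 from 109 and 116 to 83.5 and 79.6 CPM. Of 18 tested genes of mechanically gated and volume-regulated channels, 6 were higher and 0 lower (2 lower without control replicate 1). Piezo1, a stretch-gated cation channel, was at 6.71 and 9.34 CPM in control, 7.89 and 7.84 CPM with the piezoelectric material, 12 and 11 CPM with ultrasound and 12.8 and 13 CPM with nanostickers (0.69 ± 0.15 against control, edgeR adjusted p = 0.00344); nanosticker minus ultrasound was 0.17 (adjusted p = 0.437). Panx1 rose by 0.62 ± 0.1, Tmem63b by 0.32 ± 0.058 and Trpc1, which shares reads, by 0.97 ± 0.1. Trpv4 and Trpm7 were not called.

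Voltage-gated channels changed without a common direction. Of 21 calcium channel genes 6 were higher and 6 lower (3 lower under DESeq2). Cacna1c, the pore of an L-type calcium channel, fell from 43 and 40 to 19.3 and 22.2 CPM (-1.0 ± 0.087, edgeR adjusted p = 1.22e-06) and Cacna1e, an R-type pore, by 1.22 on the log2 scale, and the beta subunit gene Cacnb4 by 0.79. Cacna1a, a P/Q-type pore, rose (0.52 ± 0.072), Cacna1h, which shares reads, changed by 0.86 ± 0.084, and Ryr2, a release channel of internal stores, rose from 0.968 and 0.901 to 2.71 and 2.83 CPM. Of 19 potassium channel genes 3 were higher and 6 lower (10 lower without control replicate 1), among them Kcna6 at 1.57 ± 0.14, Kcnip3 at 0.84 ± 0.08 and Kcnd3 at -0.75 ± 0.08. Of 10 sodium channel genes 3 were higher and 2 lower (1 lower without genes that share reads). Scn4a rose from 0.516 and 0.386 to 3.11 and 3.03 CPM, while Scn3b fell (-0.84 ± 0.1) and Scn1a, which shares reads, changed by -0.79 ± 0.13.

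Among targets of YAP and TEAD, factors that answer to cell stretch and contact, 2 of 16 were higher and 6 lower (1 higher under DESeq2 and without either nanosticker library). Ccn1 fell from 47.6 and 44.3 to 22.5 and 23 CPM (-1.01 ± 0.085, edgeR adjusted p = 9.62e-07) and Fjx1 from 63.3 and 64.5 to 33 and 36.1 CPM (-0.89 ± 0.078). Tead1 itself changed by -0.42 ± 0.065 and Wwc1 by -0.47 ± 0.073, while Lats2, a kinase that restrains YAP, rose (0.34 ± 0.078). The lower calls of Crim1 and Axl held in 8 and 6 of 18 alternatives. Ccn2, Ankrd1, Amotl2 and Ajuba were among the 8 members not called. Ultrasound against control also had 6 of the 16 lower, with 1 higher, where 3.16% and 4.03% of all tested genes were. Nanosticker against ultrasound had 5 higher and 5 lower. Among 24 trophic factors and their receptors 8 were higher and 6 lower than in control, with 2 lower without nanosticker replicate 2. The secreted growth factor Ptn rose from 384 and 346 to 510.1 and 535 CPM (0.52 ± 0.059) and Fgf2 from 2.78 and 3.86 to 6.82 and 7.22 CPM (1.08 ± 0.22). Among receptors Met rose (0.85 ± 0.12), and Gfra1, which shares reads, changed by 0.56 ± 0.08. Nrg1, a ligand of the Erbb receptors, fell from 15.8 and 16 to 8.87 and 9.17 CPM (-0.82 ± 0.12), and Igfbp5, which binds insulin-like growth factors, from 148 and 236 to 51 and 50.7 CPM (-1.91 ± 0.25, adjusted p = 0.00416), with its control libraries wide apart.

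BMP and Wnt genes were mixed. Of 21 BMP pathway genes 7 were higher and 8 lower. Among ligands Bmp4 rose from 77.9 and 68.9 to 110.3 and 116 CPM (0.62 ± 0.071, edgeR adjusted p = 1.48e-05). Bmp6 fell from 108 and 115 to 51.2 and 54.8 CPM (-1.07 ± 0.076). The secreted antagonists were split: Chrdl1 (1.25 ± 0.083) and Grem1 (1.82) rose, and Nog, which shares reads, fell (-0.88). Of the Id genes, transcriptional targets that block differentiation factors, Id1 rose (0.68 ± 0.084) and Id4 fell (-0.96 ± 0.067). Of 24 Wnt genes 2 were higher and 7 lower, and 4 were higher without control replicate 2. Lgr5, an R-spondin receptor, fell from 24.5 and 23.8 to 7.81 and 6.61 CPM (-1.74 ± 0.11) and the ligand Wnt7a from 59.4 and 57.2 to 34.8 and 36.9 CPM (-0.70 ± 0.073), and the receptor gene Fzd2 changed by -0.43 ± 0.06. Tcf7l2, a Wnt effector that oligodendrocytes use as they differentiate, rose from 51.6 and 48.7 to 78.3 and 79.6 CPM (0.65 ± 0.071), against 34.4 and 32.1 CPM with ultrasound.

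Targets of NRF2, the factor that answers oxidative stress, fell more often than they rose. Of 24 NRF2 and glutathione genes 2 were higher and 14 lower (median -0.38); the count of higher members was between 0 and 4 over the alternatives. Slc7a11, the cystine importer, went from 212 and 239 to 63 and 53.3 CPM (-1.96 ± 0.095, edgeR adjusted p = 8.91e-08), Srxn1, sulfiredoxin, from 150.5 and 146 to 58.6 and 59.4 CPM (-1.33 ± 0.06), and Gclc, of glutathione synthesis, from 239 and 231 to 122 and 117 CPM (-0.98 ± 0.054). Nqo1, the quinone reductase, was at 502 and 470.5 CPM in control, 351 and 399.6 CPM with the piezoelectric material, 292 and 329 CPM with ultrasound and 228 and 222 CPM with nanostickers, and nanosticker minus ultrasound was -0.46 (adjusted p = 4e-04). Hmox1, heme oxygenase, fell by 0.77, Me1, malic enzyme, by 1.15, and Gstm1, a glutathione transferase, by 1.25 on the log2 scale.

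Of 20 genes of the integrated stress response, which Atf4 directs, 3 were higher and 9 lower. The serine synthesis enzymes Psat1 and Phgdh went from 568 and 525 to 221 and 235 CPM (-1.26 ± 0.058, edgeR adjusted p = 4.11e-09) and from 448 and 433 to 219.9 and 219 CPM (-1.0 ± 0.053), Atf4 itself changed by -0.42 ± 0.057 and Atf5 by -0.60 ± 0.066, and the reelin receptor gene Vldlr rose (0.77 ± 0.07). Of 14 chaperone genes 6 were higher and 2 lower (1 lower under 6 of 18 alternatives); Hspa5, the chaperone of the endoplasmic reticulum, rose from 513 and 482 to 612 and 593 CPM (0.28 ± 0.054), Pdia4 by 0.37 ± 0.063 and Xbp1 by 0.40 ± 0.077, and Bag3 fell (-0.28 ± 0.058). Of 18 p53 targets 5 were higher and 2 lower, with 3 higher and 1 lower without nanosticker replicate 1; Gadd45a rose from 28.1 and 24 to 57.3 and 57.5 CPM (1.14 ± 0.088) Plk3 by 1.60 ± 0.14 and the death gene Bbc3 by 0.80 ± 0.16, while the death receptor gene Fas fell (-0.64 ± 0.089).

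**Figure D5:**
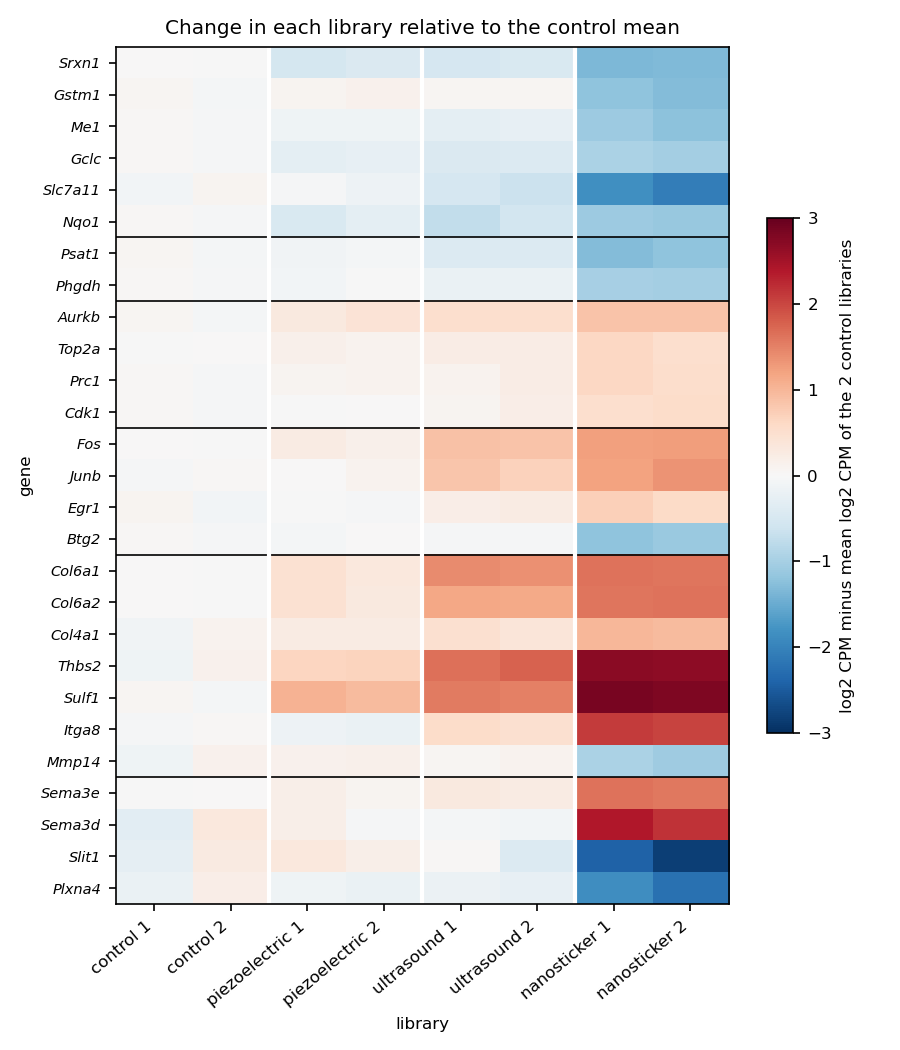
Colour gives log2 CPM in each of the 8 libraries minus the mean of the 2 control libraries for 27 genes described in the text, in blocks for NRF2 targets, serine synthesis, mitosis, immediate early genes, matrix and axon guidance; red is higher and blue is lower. The 2 nanosticker columns match each other and carry the strongest colours, such as Sulf1 (2.83) and Slit1 (-2.63).

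Metabolic genes showed moderate changes. Of 22 cholesterol synthesis genes, which myelinating cells use heavily, 13 were higher and 3 lower, but 7 were higher with only the 2 groups compared or without nanosticker replicate 2. Dhcr7, the enzyme of the last step, rose by 0.38 ± 0.052 (edgeR adjusted p = 7.99e-05), Tm7sf2 by 0.62 ± 0.092 and Idi1 by 0.38 ± 0.059, and Cyp51 fell (-0.28 ± 0.052). Of 23 lysosome genes 15 were higher and 2 lower. Npc1, which exports cholesterol from lysosomes, rose from 135 and 142 to 244 and 241 CPM (0.81 ± 0.054), Gpnmb from 54.7 and 47.3 to 114 and 109 CPM, Lipa by 0.82 ± 0.063 and Ctsl by 0.67 ± 0.07, while the cathepsin gene Ctsh fell from 266 and 252 to 130.3 and 136 CPM (-0.96 ± 0.057). Of 20 glycolysis and hypoxia genes 4 were higher and 7 lower. The glucose transporter gene Slc2a1 fell from 224 and 219.9 to 104 and 108 CPM (-1.07 ± 0.062), Pdk1 changed by -0.93 ± 0.074 and Pfkl by -0.74 ± 0.059, and Ndrg1 rose from 41.6 and 41.9 to 90.7 and 94.5 CPM (1.15 ± 0.079). Of 10 iron genes 2 were higher and 4 lower, and the lower count was between 0 and 4 over the alternatives. Tfrc, the transferrin receptor, was at 158 and 148 CPM in control and 127 and 120.4 CPM with nanostickers (-0.30 ± 0.073), a call lost without nanosticker replicate 2 (adjusted p = 0.0668, the highest of 18 alternatives, from 0.00156). Steap2, an iron reductase gene, changed by -0.36 ± 0.11, a call lost under 5 alternatives (adjusted p from 0.0114 to 0.177). Tf, transferrin, which oligodendrocytes make, was at 134 and 119 CPM in control, 446 and 416 CPM with ultrasound and 314 and 321 CPM with nanostickers (1.33 ± 0.1 against control). The iron exporter gene Slc40a1, which shares reads, had 0 counts in both control libraries and 13 and 24 with nanostickers, at least 12.8-fold higher with 3 counts over the group as the floor. Ultrasound raised the iron list as far: its largest called log2 fold change against control was 7.31, and that of nanostickers was 7.26. No iron gene was called higher with nanostickers than with ultrasound, and 2 were lower.

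Matrix genes rose more often than they fell. Of 22 collagen genes 12 were higher and 1 lower (3 lower without control replicate 1; median 0.56). The collagen VI chains Col6a1 and Col6a2 went from 12.3 and 12.2 to 37.8 and 37 CPM (1.61 ± 0.087, edgeR adjusted p = 1.78e-08) and from 35.7 and 35.3 to 108 and 110.5 CPM (1.62 ± 0.072), the basement membrane chain Col4a1 rose by 0.96 ± 0.07 and Col5a3 by 0.91 ± 0.069, and Col22a1 fell from 20.1 and 25.9 to 6.88 and 7.01 CPM (-1.72 ± 0.14). Of 20 proteoglycan and hyaluronan genes 6 were higher and 2 lower (1 lower without nanosticker replicate 2). Sulf1, which removes sulphate from heparan sulphate chains, was at 13.4 and 12.3 CPM in control, 26.5 and 24.7 CPM with the piezoelectric material, 37.7 and 36.5 CPM with ultrasound and 93 and 89.7 CPM with nanostickers (2.83 ± 0.08 against control). Sulf2, its relative, rose from 604 and 640.0 to 1077 and 1054 CPM, Cemip, which breaks down hyaluronan, from 4.45 and 4.25 to 10.1 and 9.91 CPM and Acan, aggrecan, from 1.48 and 2.25 to 5.23 and 4.05 CPM. Of 19 matricellular and protease genes 9 were higher and 5 lower. Spp1, osteopontin, rose from 19 and 15.8 to 63.7 and 65.3 CPM (1.89 ± 0.12) and the protease inhibitor gene Timp4 from 13.6 and 11.3 to 34.1 and 30.7 CPM. The metalloproteinases Mmp14, Mmp2 and Adamts9 fell by 1.01, 1.0 and 1.13 on the log2 scale. Of 25 integrin and laminin genes 10 were higher and 4 lower (7 lower without control replicate 1 or with the length trend removed), led by the integrin Itga8 from 13.6 and 14.2 to 59.5 and 56.6 CPM (2.07 ± 0.083) and the basement membrane genes Nid2 (1.67 ± 0.1) and Lama4 (1.56 ± 0.11), and Itgb4 rose from 182 and 221 to 339.9 and 348 CPM.

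Secreted neuropeptides and guidance cues completed the lists. Of 11 tested neuropeptide genes 6 were higher and 3 lower. Penk, the enkephalin precursor, rose from 21.8 and 20.1 to 45.8 and 44.2 CPM (1.11 ± 0.078, edgeR adjusted p = 1.73e-07), and Vgf and Npy, which share reads, changed by 1.62 ± 0.086 and 1.21 ± 0.084. Cck, the cholecystokinin precursor, fell from 5.29 and 3.86 to 0.728 and 0.607 CPM (-2.76 ± 0.28), and Chga, chromogranin A of secretory granules, from 14.7 and 15.4 to 3.31 and 3.24 CPM (-2.20 ± 0.17). Scg3, of the same granules, changed by -0.81 ± 0.058. Ultrasound against control also had 6 of the 11 neuropeptide genes higher, with 1 lower, where 4.03% and 3.16% of all tested genes were. Nanosticker against ultrasound had 4 higher and 4 lower. Of 23 axon guidance genes 9 were higher and 9 lower than in control, above the background in both directions. The semaphorins Sema3e and Sema3d rose from 30.5 and 31.2 to 94.7 and 93.1 CPM (1.61 ± 0.07) and from 10 and 15.6 to 66.4 and 56.4 CPM (2.26 ± 0.18), Sema3a by 1.0 ± 0.072 and Sema6a by 0.66 ± 0.054, and the netrin receptor gene Unc5b rose from 44.7 and 49.7 to 98 and 101 CPM. The repellent Slit1 fell from 9.17 and 13.3 to 2.05 and 1.55 CPM (-2.63 ± 0.25) while Slit2 rose from 10.2 and 12.6 to 24.9 and 23.7 CPM (1.09 ± 0.14), and the semaphorin receptor Plxna4 fell from 59.1 and 78.2 to 18.7 and 14.4 CPM (-2.05 ± 0.16).

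The nanosticker group also differed from both other treated groups over a large share of genes. Against the piezoelectric group 5212 genes were called, 2713 higher and 2499 lower, and against ultrasound 4938, 2517 higher and 2421 lower. By the same rule as before, the 5 largest increases over the piezoelectric group were those of Tnn (4.97), Trh (4.22), Serpinb1a (3.75), Prex2 (3.58) and Krt19 (3.48), and over ultrasound Tnn (4.0), Sostdc1 (3.95), Krt19 (3.92), Igf2 (3.28) and Trh (2.94). The 5 largest decreases against the piezoelectric group were Prokr2 (-5.74), Ttr (-4.38), Amer3 (-3.84), Xkr7 (-3.83) and Dlx1 (-3.82), and against ultrasound Prokr2 (-5.41), Amer3 (-4.0), Dlx1 (-3.57), Calb2 (-3.48) and Dlx5 (-3.45). Prokr2 was at 75.9 and 71.2 CPM with the piezoelectric material and 62.4 and 54.8 CPM with ultrasound. Ttr, the thyroid hormone carrier of the choroid plexus, was not called against control: it was at 2.71 and 2 CPM in control, 44.2 and 52.1 CPM with the piezoelectric material, 10.1 and 11 CPM with ultrasound and 1.92 and 2.7 CPM with nanostickers (-0.029 ± 0.23 against control, edgeR adjusted p = 0.938).

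The direct tests share the nanosticker libraries, and the counts of the lists are given side by side. Of the 22 stem cell and radial glia genes, 2 were higher and 13 lower against the piezoelectric group, and 2 and 11 against ultrasound. Of the 17 astrocyte genes, 3 were higher and 11 lower, and 3 and 9. Of the 18 oligodendrocyte precursor genes, 11 were higher and 0 lower, and 13 and 0. In these 3 lists the larger count was in 1 direction in each direct test. Of the 24 NRF2 and glutathione genes, 3 were higher and 12 lower against the piezoelectric group, and 4 and 15 against ultrasound. Of the 22 collagen genes, 9 were higher and 2 lower, and 9 and 1. Of the 22 cholesterol synthesis genes, 14 were higher and 2 lower, and 14 and 0. Immediate early genes divided differently by comparison, with 10 of 23 higher and 4 lower against the piezoelectric group, and 4 higher and 7 lower against ultrasound. Chemokine ligands were 5 of 10 higher and 2 lower against the piezoelectric group, and 3 higher and 4 lower against ultrasound.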

How the data were processed

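Polyadenylated RNA from the 8 rat neural stem cell samples was read as DNA nanoballs after cDNA synthesis from random hexamers, per the labels' protocols. The authors deposited estimated counts per gene, with FPKM (scaled by length and depth) and TPM (scaled by length, with the same total in each library), per the file headers. The build was Rnor 6.0, per the submitters' processing notes; the aligner, the quantifier and the use of strand were not given in the sources used here. The deposited FPKM values were used only to derive transcript lengths. The TPM values were used to state levels, in places in control and nanosticker libraries side by side. They carry no TMM factors, and all calls and log2 fold changes rest on the counts. Of the deposited estimated counts, 10.5% were not whole (tolerance 0.005); counts were rounded to whole numbers, and 2627 genes with such values are treated as sharing reads.

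The 8 libraries of 4 groups were fitted together with edgeR 4.0.16 (limma 3.58.1, R 4.3.3): filterByExpr, TMM factors, robust quasi-likelihood dispersion, 4 residual degrees of freedom, and 7.09% as the biological coefficient of variation. The standard error is the size of the log2 fold change divided by the square root of F, and p-values were adjusted by Benjamini-Hochberg over 14336 genes with a threshold of 0.05. The procedure was run on simulated data with changes of known size in a small set of genes and a single dispersion for all genes. Those settings are simpler than these data, so no support for the calls is drawn from that run. DESeq2 1.42.0, limma-voom, other size factors, other filters on low counts, a replicate block, only the groups compared, removal of a length trend, only whole counts and leaving out each library were the alternatives. The depth, 15239133 to 15628667 counts a library, limits genes under a few CPM, and counting intervals and floors cover counting error only.

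Genes were named by a rule: the 12 largest called increases and the 12 largest called decreases with at least 5 CPM in a group, whole counts, no overlap between groups and a symbol that is no placeholder; up to 4 members of each list with the smallest adjusted p; a set of lineage and channel genes; and the 5 largest changes each way in each direct test. Other list members were named after their values were seen. Some genes that the rule names are not reported here. The groups compared and the 43 lists were chosen with earlier results of these data known; of 879 listed symbols 872 were in the table, 2 of them by an older symbol, and 805 were tested. The authors' own differential expression columns and their table of correlations between libraries were not used.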

Additional observations from a re-analysis of the deposited data

How the results depend on the processing

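Between nanosticker and control, the number of called genes was 3774 under DESeq2, 5371 under limma-voom, 5353 with RLE factors, 5498 on library size alone, 5350 without and 5170 with a stricter filter on low counts, 4058 with only the groups compared, 6133 with the length trend removed, 5176 over genes with whole counts and 3787 to 5987 with a library left out, against 5378. DESeq2 shared 3721 of the calls in direction (69.2%) and library size alone 4818 (89.6%), with 41.4% of its calls higher and 58.6% lower against 52.8% higher. Nanosticker against ultrasound moved most: with a library left out it gave 3199 to 6251 called genes against 4938, 1657 to 3114 higher against 2517, and 1542 to 3164 lower against 2421, the lowest in each case without ultrasound replicate 1, and DESeq2 gave 1605 lower. Between nanosticker and piezoelectric, leaving out a library gave 3599 to 6536 against 5212. With only the groups compared, the calls fell against control but rose in the direct tests. They were 6336 against piezoelectric and 6210 against ultrasound. The cause of these shifts was not tested.

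Of 524 called genes among those named or listed, none changed direction in any alternative that gave it a value, and 68 lost their call under DESeq2, 55 with only the groups compared, and 70 and 77 without nanosticker replicate 1 and 2. Of the 12 genes whose values are given though they were not called, 7 changed sign: with a library left out the log2 fold change ranged from -0.29 to 0.20 for Ttr, -0.28 to 1.81 for Bdnf, -0.063 to 0.14 for Pdgfra (-0.024 on library size alone), -0.22 to 0.58 for Slc1a2, -0.097 to 0.23 for Arc, -0.15 to 0.056 for Cxcl10 and -0.14 to 0.33 for P2ry12.

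Replicates carry the same numbers in every group, and the deviations of same-numbered libraries correlated between -0.14 and 0.14. The labels do not say whether the numbers pair the samples. These correlations, from a single replicate difference per group, cannot decide it. With the replicate block 4973 genes were called against control, 4824 against piezoelectric and 4560 against ultrasound. At 2 libraries a group and 15239133 counts or more, genes of a few counts, such as the microglial ones, support only ratios with wide counting intervals.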

Other observations

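Several abundant genes outside the lists also changed; the genes of this paragraph were chosen after their values were seen. Apoe, apolipoprotein E, the main lipid carrier made by astrocytes, was at 17568 and 17409 TPM in the control libraries and 5531 and 5697 TPM in the nanosticker libraries, a fall of 1.58 ± 0.057 on the log2 scale of the normalised counts (edgeR adjusted p = 7.96e-10). Apod, apolipoprotein D, which oligodendrocytes also make, was at 409 and 401 TPM in control and 1813 and 1696 TPM with nanostickers (2.17 ± 0.068, adjusted p = 3.09e-10). Clu, clusterin, a secreted chaperone that also binds lipid, fell from 1848 and 1768 to 995 and 1033 TPM. The 2 nanosticker libraries lay outside the range of the control libraries for all 3 genes. The metallothioneins Mt1 and Mt3, which bind zinc and copper, fell from 6696 and 6877 to 4029 and 3253 TPM and from 9934 and 8836 to 5999.8 and 5812 TPM, and Cst3, the secreted protease inhibitor cystatin C, rose from 4915 and 4968 to 7228 and 7222 TPM. Tubb4a, a beta-tubulin abundant in oligodendrocytes, rose from 580.3 and 582 to 1498 and 1517 TPM and Sirt2, a deacetylase of the myelin sheath, from 1118 and 1121 to 2325 and 2320.1 TPM. For these 8 genes the call held in every one of the 18 alternatives.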
